A study of Mus musculus with 12 samples.

Results

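The genes of glycolysis, gluconeogenesis and pyruvate entry were followed in BN1-Tie2-EGFP cells, an immortalized mouse hepatoblastoma line. The members were the rows of the expression table whose gene name was on a list of 39 genes, and all 39 were found among the 45706 genes of the table. The list runs from glucose uptake (Slc2a1 and Slc2a3) through the isozymes of each glycolytic step to lactate dehydrogenase, and then covers pyruvate dehydrogenase (Pdha1 and Pdhb), its kinases (Pdk1 to Pdk4) and the enzymes peculiar to gluconeogenesis (Fbp1, Fbp2, Pck1, Pck2, Pcx and G6pc). BN1 cells came from a tumor induced in an FVB/N mouse by mutant β-catenin and mutant NRF2, and every group, controls included, carried Cdkn2a mutations made by CRISPR, which the labels call KO although mutant forms of its proteins are still expressed according to the study. They carried EGFP under the Tie2 promoter, in stable clones that had been pooled, and they represent 1 line. The labels call every library EGFP+, the unsorted ones included. RNA-seq was done on 12 libraries in 4 groups of 3. Unsorted cells were grown in normoxia at 21% oxygen (UN) or in hypoxia at 1% oxygen for 2 days (UH). The sorted groups came from hypoxic cultures, from which the cells with the highest EGFP were taken by flow cytometry, and were then expanded in normoxia for about 10 days (SN), or expanded and returned to 1% oxygen for 2 days (SH). Sorted and unsorted cells thus differed both in the sort and in an earlier spell of hypoxia, and these cannot be told apart.

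Glycolysis converts glucose to pyruvate in the cytosol. Pyruvate is then either reduced to lactate by lactate dehydrogenase or oxidized in the mitochondrion by the pyruvate dehydrogenase complex, which the PDK kinases switch off by phosphorylation. Several steps are shared out among isozymes from separate genes: liver parenchyma is known for the pyruvate kinase encoded by Pklr and for gluconeogenesis through Pck1, Fbp1 and G6pc, whereas Hk2, Pfkp, Aldoa and Pkm are the forms common in proliferating and tumor cells. Many glycolytic genes are known targets of the hypoxia-inducible factors, which bind a short core sequence near gene starts.

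Values were in TPM (transcripts per 1000000), which are corrected for transcript length, sum to 1000000 in each library and so can be compared between genes. Sequencing depth cannot be read from them, and precision rests on the spread of 3 libraries. Libraries of 1 group correlated at 0.977 to 0.991 across genes. Of 8 hypoxia-induced genes outside the list, 7 were called higher in UH than UN and the same number in SH than SN. Tek, the gene whose promoter drives the reporter, averaged 0.133 TPM in UN, 0.156 in UH, 2.49 in SN and 3.04 in SH. The endothelial markers Cdh5, Emcn, Tie1 and Cldn5 and the leukocyte marker Ptprc were near 0, but these lists were not absent as a whole. Of the 10 endothelial markers 5, and of the 10 leukocyte markers 6, averaged at least 0.1 TPM over the 12 libraries. A list of 10 fibroblast markers stood out, with a summed level of 1313 to 4508 TPM in UN, 4801 to 7115 in UH, 169 to 192 in SN and 47.3 to 72.7 in SH. Its genes did not move together with hypoxia. Of 9 tested, 3 were called higher and 3 lower in UH than UN, with a median log2 fold change of 0.05. In SH against SN 1 was called higher and 2 lower, with a median of 0.06. The summed level of 10 hepatocyte markers was 6.06 to 22.0 TPM in unsorted and 47.9 to 71.6 TPM in sorted libraries. Of 8 tested, Trf and Afp were called higher and Alb, Apob and Hnf4a lower in SN than UN, and Alb averaged 2.51 TPM in UN and 0.212 TPM in SN. The summed level of 10 endothelial markers peaked in UH at 18.3 to 28.5 TPM, and that of 10 leukocyte markers was highest in SN at 304 to 345 TPM. The endothelial sum does not describe the list as a set. Of its 5 tested markers only 1 was called higher in UH than UN, and their median log2 fold change was 0.03. UN replicate 1 held the 4508, and results that turn on it are given without it as well. The study calls the replicates of a group independent, but neither it nor the labels say that they were separate cultures, so p-values measure only the spread between these libraries.

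The 6 members at or near 0 in every library were not tested. They were the gluconeogenic genes Fbp1, Fbp2, Pck1 and G6pc, the glucose transporter gene Slc2a3 and the hexokinase gene Hk3. The highest value among them was 0.166 TPM, for Slc2a3 in SH replicate 1. The other 33 members had a mean of at least 0.1 TPM over the 12 libraries. Gapdh was the most abundant member in each of the 4 groups. By mean TPM it ranked 20th among all genes in UN and 9th in SN, and 1st in both hypoxic groups. Of the 100 genes with the highest mean, 2 were members in UN, 9 in UH, 3 in SN and 9 in SH.

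**Figure D1:**
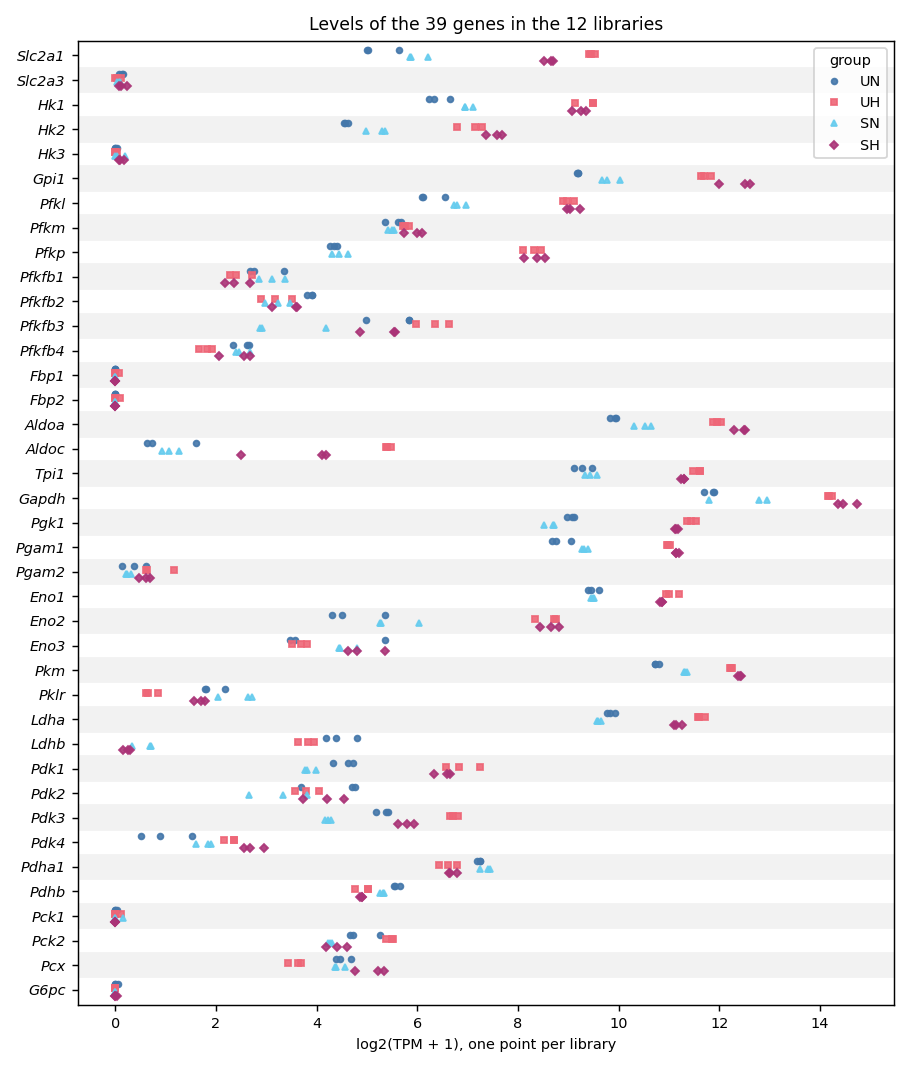
Levels of the 39 members in the 12 libraries, as log2(TPM + 1), with 1 point per library and 1 color and marker per group. The UH and SH points lie to the right of the UN and SN points for Slc2a1, Hk1, Hk2, Pfkp and the called members from Aldoa to Eno2. Ldhb separates unsorted from sorted cells.

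Hypoxia raised most of the pathway in both backgrounds. In UH against UN, 19 of the 33 tested members were called higher, 1 was called lower and 13 were not called. A gene was called at an adjusted p under 0.05 (limma on log2(TPM + 1), Benjamini-Hochberg over 18909 genes) and a log2 fold change beyond 1 in size, and by this rule 5.46% of all tested genes were called higher and 11.8% lower. The median log2 fold change of the members was 1.49, against -0.19 for all tested genes, so the member values below are to be read from that baseline. In SH against SN, again 19 members were called higher, none was called lower, and the background was 7.47% higher and 5% lower. The median there was 1.55 for the members and 0.03 for all genes. Without regard to the size of the change, every UH library lay above every UN library for 22 members and below for 7, beside 14.9% and 36.2% of all tested genes. Between SH and SN this held for 23 and 5 members, beside 29.7% and 27.1%. These comparisons share no library. They called 18 members higher in common, while Pdk4 was called only in UH against UN and Pfkfb3 only in SH against SN, and for neither gene was the difference between these responses called. Leaving out UN replicate 1 left 19 higher and 1 lower in UH against UN. Scaling the libraries by median of ratios moved the all-gene median of that comparison to 0 and the calls among all genes from 1032 higher and 2222 lower to 1564 and 1217, with 20 members higher and 1 lower. The members took up 1.09% ± 0.0228 of all TPM in UN (SD, n = 3 in each group), 4.75% ± 0.0998 in UH, 1.51% ± 0.262 in SN and 5.41% ± 0.458 in SH, a 4.35-fold rise of the mean in unsorted and a 3.57-fold rise in sorted cells. The hypoxic libraries did not overlap the normoxic ones in this share. With 3 libraries a side, the smallest exact permutation p is 0.1, so no test of such a share could pass 0.05. Transcripts of the mitochondrial genome moved the other way, from 6.10% to 2.11% and from 8.10% to 3.43% of TPM. With these removed from the denominator the members still made up 1.16%, 4.85%, 1.65% and 5.60%.

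**Figure D2:**
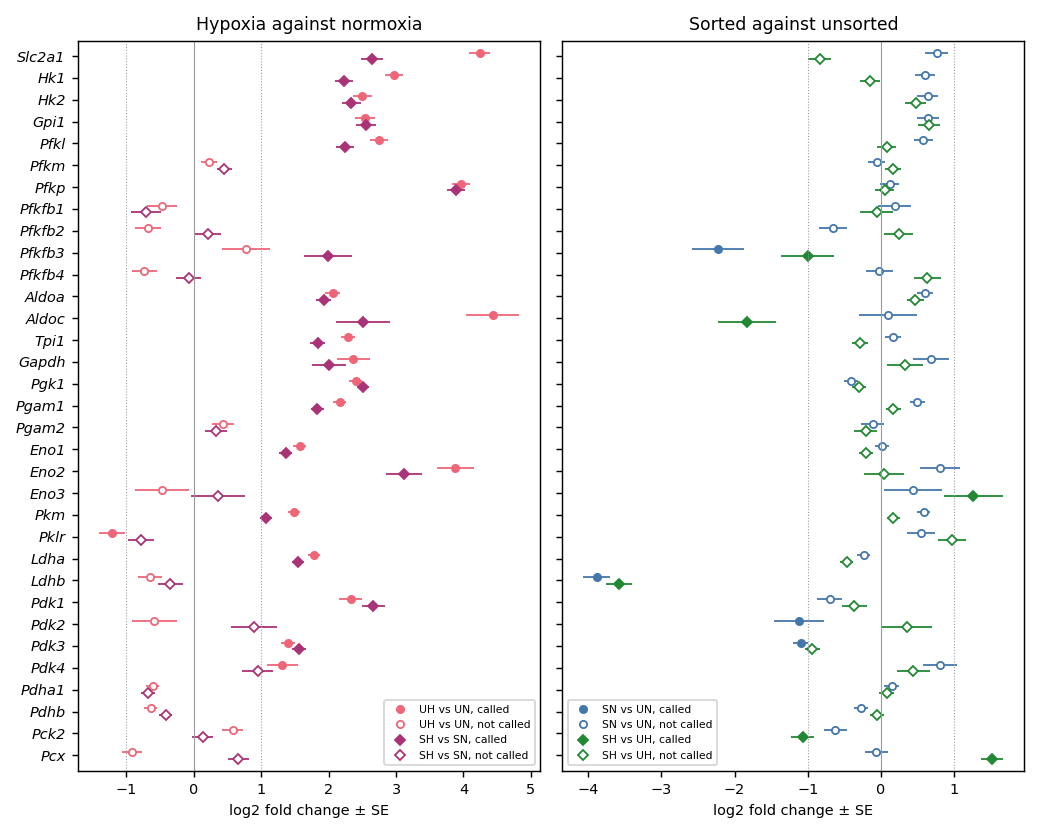
Log2 fold changes of the 33 tested members with their standard errors from limma, for hypoxia against normoxia (left) and sorted against unsorted cells (right); filled points were called and dotted lines mark 1 and -1. On the left, 19 members are called higher in each comparison and the points of both lie close together for most genes, and on the right most points lie between the dotted lines.

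**Figure D3:**
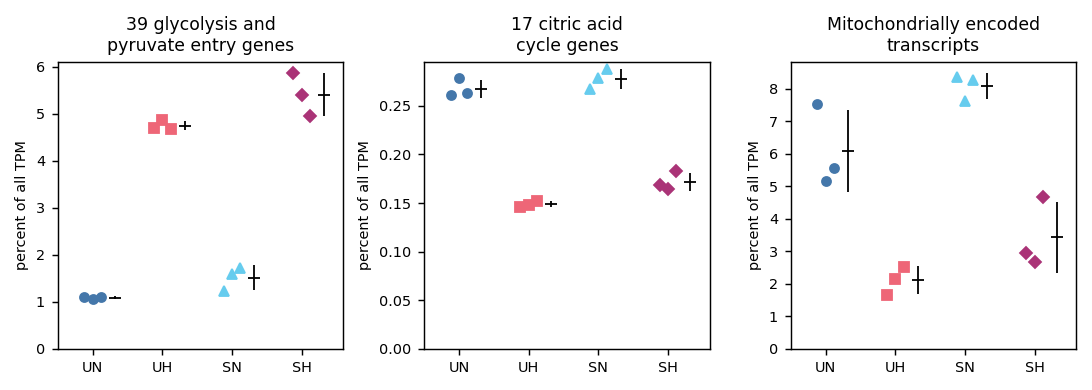
Percent of all TPM held by the 39 members, by 17 citric acid cycle genes and by mitochondrially encoded transcripts, with 1 point per library and the group mean ± SD as a black bar. The members rise from about 1.09% to 4.75% and from 1.51% to 5.41% with hypoxia, while both other shares are lower in the hypoxic groups.

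Since hypoxia-inducible factors bind ACGTG or GCGTG, the letters of the gene starts are shown for members that rose at different steps. RefSeq windows (GRCm38.p6) from 250 bases before to 50 after each start were found for 38 of the 39 members, all but Slc2a3, and made up 59 windows. Capitals mark ACGTG or GCGTG on either strand, and CACGTG, which reads the same on both strands, counts as 2 overlapping ACGTG matches. The windows for the glucose transporter gene Slc2a1 (chr4:119108495-119108794, plus strand), the phosphofructokinase gene Pfkp (chr13:6648722-6649021, minus strand), Gapdh (chr6:125165724-125166023, minus strand), 1 start of Ldha (chr7:46845554-46845853, plus strand) and the triose phosphate isomerase gene Tpi1 (chr6:124814109-124814408, minus strand) read as follows, 5′ to 3′.
Slc2a1: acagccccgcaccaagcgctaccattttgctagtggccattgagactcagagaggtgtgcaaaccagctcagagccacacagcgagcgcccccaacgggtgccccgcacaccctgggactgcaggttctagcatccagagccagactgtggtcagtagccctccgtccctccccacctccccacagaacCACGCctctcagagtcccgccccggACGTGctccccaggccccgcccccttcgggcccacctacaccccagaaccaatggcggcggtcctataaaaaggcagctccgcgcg
Pfkp: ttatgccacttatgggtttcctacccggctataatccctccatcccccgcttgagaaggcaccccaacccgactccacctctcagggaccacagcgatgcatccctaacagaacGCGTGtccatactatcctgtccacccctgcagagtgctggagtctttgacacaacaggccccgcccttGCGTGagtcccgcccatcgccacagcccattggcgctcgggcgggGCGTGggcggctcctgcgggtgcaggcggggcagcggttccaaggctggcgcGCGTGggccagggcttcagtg
Gapdh: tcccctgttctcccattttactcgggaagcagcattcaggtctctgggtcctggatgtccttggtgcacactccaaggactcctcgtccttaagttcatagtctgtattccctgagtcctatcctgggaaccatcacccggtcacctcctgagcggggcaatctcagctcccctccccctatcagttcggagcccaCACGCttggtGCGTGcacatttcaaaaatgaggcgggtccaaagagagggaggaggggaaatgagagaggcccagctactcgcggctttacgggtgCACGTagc
Ldha: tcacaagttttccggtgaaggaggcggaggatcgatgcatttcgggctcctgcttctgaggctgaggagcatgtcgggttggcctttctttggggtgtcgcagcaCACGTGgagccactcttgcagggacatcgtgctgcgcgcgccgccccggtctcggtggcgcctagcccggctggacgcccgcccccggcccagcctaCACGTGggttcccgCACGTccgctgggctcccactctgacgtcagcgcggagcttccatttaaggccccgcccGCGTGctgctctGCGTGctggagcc
Tpi1: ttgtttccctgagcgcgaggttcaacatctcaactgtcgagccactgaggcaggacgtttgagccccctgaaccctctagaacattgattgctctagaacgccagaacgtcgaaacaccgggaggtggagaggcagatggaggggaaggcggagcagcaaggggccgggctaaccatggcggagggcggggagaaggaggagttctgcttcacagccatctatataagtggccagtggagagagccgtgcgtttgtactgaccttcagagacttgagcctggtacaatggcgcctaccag
The Ldha window shown had 5 ACGTG and 2 GCGTG matches, and the other Ldha window had 0 and 2. Slc2a1 had 1 of each, Gapdh had 1 and 2, Pfkp had 4 GCGTG matches and Tpi1 had none, although all 5 genes rose. Over all windows, ACGTG occurred in 23 of the members' 59 (38.98%) and in 19.6% of the 32851 windows of all genes, and GCGTG in 28 (47.5%) and 32.4%. By gene, 16 of the 19 members called higher in UH against UN had 1 of these letter strings in some window, and so did 14 of the other 19 members with windows. Among all 27025 genes with windows, 46.7% did. A gene with more windows has more places for a match, and the 38 members had 59 windows where all 27025 genes had 32851. A match is a description of letters and was not tied to binding in these data.

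In unsorted cells the largest rise among the abundant members was that of glucose entry. Slc2a1 encodes the transporter GLUT1 and lies on the plus strand at chr4:119108711-119137983 (GRCm38). It stood at 48.8, 31.01 and 31.5 TPM in the 3 UN libraries and at 681, 698 and 734 TPM in UH. In sorted cells it went from 57.2, 57.7 and 73.03 TPM in SN to 416, 405 and 363 TPM in SH. Neither pair of groups overlapped, and every SH library lay below every UH library. The log2 fold change was 4.24 ± 0.16 (SE; limma adjusted p = 1.26e-08) in unsorted and 2.64 ± 0.16 (adjusted p = 4.42e-07) in sorted cells.

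Hexokinase, which traps glucose as glucose 6-phosphate, was represented by Hk1 and Hk2. Hk1 measured 99.8, 79.2 and 74.2 TPM in UN and 562, 723 and 714 TPM in UH, then 123, 123 and 137 TPM in SN and 608, 652 and 538 TPM in SH. Hk2, the form often described as inducible, was at 23.7, 22.3 and 22.5 TPM in UN and 109.9, 141 and 155 TPM in UH. Its sorted values were 38.1, 30.6 and 40.2 TPM in SN and 192, 205 and 163 TPM in SH. Both genes rose without overlap, Hk1 by 2.97 ± 0.13 and 2.22 ± 0.13 on the log2 scale in unsorted and sorted cells and Hk2 by 2.50 ± 0.14 and 2.33 ± 0.14 (SE). Hk1 remained the major form, with 78.5% ± 2.11 of the hexokinase TPM in UN, 83.2% ± 0.857 in UH, 77.9% ± 1.94 in SN and 76.3% ± 0.396 in SH. An antisense gene at Hk1, Hk1os, averaged 5.40 TPM over the 12 libraries, well below Hk1 itself.

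Gpi1, which isomerizes glucose 6-phosphate to fructose 6-phosphate, measured 572, 585 and 583 TPM in UN and 3191, 3658 and 3309 TPM in UH. It reached 5846, 6258 and 4095 TPM in SH from 813, 872 and 1041 TPM in SN. The log2 fold changes of 2.54 ± 0.15 and 2.55 ± 0.15 (SE) differed between the backgrounds by less than the error of either.

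Phosphofructokinase-1, the committing step, changed its composition because its 3 genes moved unequally. Pfkp, the platelet form, had 20.2, 19.3 and 18.2 TPM in UN and 274, 352 and 319.7 TPM in UH. In sorted cells it had 18.9, 20.7 and 23.6 TPM in SN and 333, 371 and 276 TPM in SH. Its rise of 3.96 ± 0.13 (SE; limma adjusted p = 4.95e-09) and 3.89 ± 0.13 on the log2 scale was among the largest of all members in both comparisons. Pfkl, the liver form, went from 92.1, 68.5 and 66.9 TPM in UN to 499, 557 and 476 TPM in UH. From 109.7, 105 and 124 TPM in SN it went to 499, 520.0 and 597 TPM in SH. These log2 fold changes were 2.75 ± 0.13 and 2.24 ± 0.13. Pfkm, the muscle form, was not called, with group means of 46.0, 53.7, 43.8 and 60.6 TPM in UN, UH, SN and SH and log2 fold changes of 0.23 ± 0.11 (adjusted p = 0.127) and 0.45 ± 0.11 (adjusted p = 0.00776). Pfkm therefore made up 32.9% ± 5.80 of the phosphofructokinase TPM in UN and 6.13% ± 0.309 in UH, and 24.7% ± 0.980 in SN and 6.54% ± 0.775 in SH. Pfkp took the opposite course, from 13.7% ± 0.393 to 35.8% ± 2.38 and from 11.8% ± 0.786 to 35.3% ± 4.78. Pfkl stayed the largest part, with means of 53.5%, 58.1%, 63.5% and 58.2%. No library of one oxygen level overlapped the other for the Pfkm and Pfkp shares within a background (exact permutation p = 0.1, the smallest possible). Pitrm1 lies opposite Pfkp and averaged 49.0 TPM, and the strand setting used for counting is not given in the sources used here.

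The Pfkfb enzymes make or remove fructose 2,6-bisphosphate, the activator of phosphofructokinase-1. Pfkfb3, known for its strong kinase activity, was the only one of the 4 called with hypoxia. It measured 30.4, 56.4 and 56.2 TPM in UN, 61.8, 81.2 and 98.3 TPM in UH, 6.52, 6.37 and 17.1 TPM in SN and 45.4, 46.2 and 28.1 TPM in SH. Its log2 fold change was 0.77 ± 0.36 in unsorted cells (SE; limma adjusted p = 0.101) and 2.00 ± 0.36 in sorted cells (adjusted p = 0.000952). The unsorted value was 0.48 without UN replicate 1, and it became a call after scaling by median of ratios (1.12) or quantiles (1.02). Pfkfb1, Pfkfb2 and Pfkfb4 had group means between 2.49 and 13.7 TPM and were not called with hypoxia in either background. Pfkfb2 and Pfkfb4 were lower in UH than UN without overlap, by -0.68 ± 0.19 and -0.73 ± 0.18, short of the fold threshold. The Pfkfb3 share of the family was 64.2% ± 9.15 in UN, 83.9% ± 0.588 in UH, 30.7% ± 11.6 in SN and 67.7% ± 2.27 in SH.

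**Figure D4:**
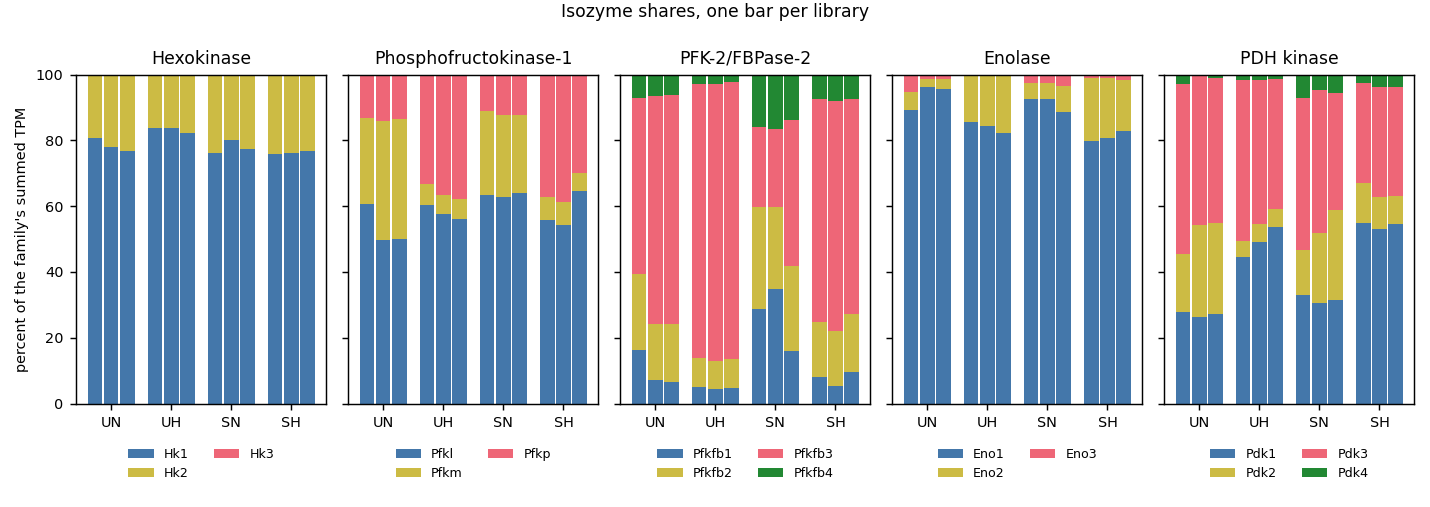
Share of each isozyme in the summed TPM of its family, in percent, with 1 stacked bar per library and the 3 replicates of a group side by side. The Pfkm segment shrinks from 32.9% to 6.13% (UN to UH) and from 24.7% to 6.54% (SN to SH), and the Pfkp, Eno2, Pfkfb3 and Pdk1 segments grow in hypoxia, whereas the hexokinase split changes little.

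Aldolase splits fructose 1,6-bisphosphate, and Aldoa made up at least 98.9% of the summed Aldoa and Aldoc TPM in each library. Aldoa stood at 908, 985 and 968 TPM in UN and 3767, 4199 and 3967 TPM in UH. In the sorted groups it stood at 1273, 1479.9 and 1605 TPM in SN and 5813, 5727 and 4984 TPM in SH, and it rose by 2.06 ± 0.11 and 1.93 ± 0.11 on the log2 scale (SE). Aldoc, the brain form, was low in normoxia, at 2.05, 0.646 and 0.552 TPM in UN and 1.39, 1.09 and 0.890 TPM in SN. It reached 40.6, 41.3 and 43.8 TPM in UH but 16.3, 17.1 and 4.61 TPM in SH, so that SH replicate 3 lay far below its partners. The fold changes on the log2(TPM + 1) scale, which understates changes from so low a level, were 4.44 ± 0.39 (limma adjusted p = 3.91e-06) and 2.51 ± 0.39 (adjusted p = 0.00038).

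The triose steps rose together. Tpi1, which interconverts the trioses, measured 710.3, 616 and 549.6 TPM in UN and 3124, 3138 and 2853 TPM in UH. It measured 647, 685 and 755 TPM in SN and 2535, 2403 and 2519.8 TPM in SH. Gapdh, the triose dehydrogenase often used as a reference gene, was at 3824, 3334 and 3775 TPM in UN and 18689, 19317 and 18351 TPM in UH. It was at 3565, 7073 and 7890.4 TPM in SN and 27418, 22644 and 20891 TPM in SH. SN replicate 1 was close to the UN libraries, while the other SN libraries lay well above it. The log2 fold changes of Gapdh were 2.37 ± 0.25 (SE; limma adjusted p = 1.39e-05) and 2.01 ± 0.25 (adjusted p = 7.22e-05), that is 5.16-fold and 4.02-fold. Those of Tpi1 were 2.29 ± 0.11 and 1.84 ± 0.11. By itself Gapdh held 0.364% of all TPM in UN and 2.37% in SH. Without Gapdh the members' share still rose 3.95-fold in unsorted and 3.40-fold in sorted cells.

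Pgk1 and Pkm are the steps that make ATP. Pgk1 had 499, 538 and 550.2 TPM in UN and 2970.2, 2631 and 2789 TPM in UH. In the sorted groups Pgk1 had 413, 363 and 419.5 TPM in SN and 2222, 2332 and 2248 TPM in SH, with log2 fold changes of 2.40 ± 0.091 and 2.51 ± 0.091 (SE). Pkm, which encodes the M forms of pyruvate kinase, had 1682, 1791 and 1678 TPM in UN and 4889, 4737 and 4794 TPM in UH. Its sorted levels were 2522, 2567 and 2616 TPM in SN and 5453, 5264 and 5490.1 TPM in SH. The rise of Pkm was 1.49 ± 0.089 and 1.07 ± 0.089 on the log2 scale, the smallest in sorted cells among the 18 members called in both comparisons, and the sorted value was 0.90, short of a call, after quantile normalization. Gene-level values cannot tell the M1 and M2 transcripts apart. Pklr, the liver and red cell form, was the only member called lower with hypoxia. Pklr was at 2.46, 3.51 and 2.44 TPM in UN and 0.575, 0.534 and 0.805 TPM in UH, with no overlap and a log2 fold change of -1.21 ± 0.19 (limma adjusted p = 0.000333). In sorted cells it was at 3.10, 5.17 and 5.56 TPM in SN and 1.93, 2.25 and 2.41 TPM in SH, a difference of -0.78 ± 0.19 that stayed under the fold threshold. Pklr made up at most 0.212% of the pyruvate kinase TPM in any library.

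Between them lie phosphoglycerate mutase and enolase. Pgam1 measured 528, 410.2 and 431 TPM in UN and 2085, 2001 and 2014 TPM in UH. It measured 673, 631 and 617 TPM in SN and 2347, 2255 and 2254 TPM in SH, and rose by 2.16 ± 0.10 and 1.83 ± 0.10 on the log2 scale (SE). The muscle form Pgam2 reached at most 1.23 TPM in any library. Eno1, the main enolase, went from 667, 781 and 699 TPM in UN to 1977, 2357 and 2046 TPM in UH. From 732, 723 and 698 TPM in SN it went to 1852, 1816 and 1863 TPM in SH. Eno1b, a near-identical copy with which Eno1 can exchange reads, held 25.0% to 27.3% of their joint TPM by group mean, so the Eno1 level is uncertain to that extent, but its share hardly moved. Eno2, the neuronal form, had 40.3, 18.7 and 21.6 TPM in UN and 322, 419.5 and 431 TPM in UH. It had 37.2, 37.9 and 64.2 TPM in SN and 449, 405 and 346 TPM in SH. The rise of Eno2, 3.88 ± 0.27 (limma adjusted p = 7.31e-07) and 3.12 ± 0.27 (adjusted p = 6.13e-06), was larger than that of Eno1, 1.57 ± 0.096 and 1.36 ± 0.096. Eno2 thereby went from 3.55% ± 1.63 to 15.4% ± 1.74 of enolase TPM in unsorted and from 5.90% ± 1.94 to 17.6% ± 2.00 in sorted cells, without overlap (exact permutation p = 0.1, the smallest possible). These shares leave Eno1b out of the enolase sum, so they carry the uncertainty of the Eno1 level, and would be lower if its TPM were counted. Eno3, the muscle form, was not called with hypoxia, and its UN values of 39.9, 10.9 and 10.1 TPM contained 1 library far above the others.

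Lactate dehydrogenase turns pyruvate into lactate and regenerates NAD+. Ldha measured 915, 876 and 976 TPM in UN and 3362, 3061 and 3088 TPM in UH. In sorted cells Ldha measured 807, 762 and 772 TPM in SN and 2185, 2245 and 2438 TPM in SH. It rose by 1.78 ± 0.090 (SE; limma adjusted p = 6.68e-08) and 1.55 ± 0.090 (adjusted p = 3.65e-07) on the log2 scale. Ldhb, the form that predominates in heart, did not rise. Its UN libraries had 26.9, 19.9 and 17.1 TPM and its UH libraries 13.3, 14.4 and 11.4 TPM, which did not overlap, and the difference of -0.65 ± 0.18 was not called. Ldhb was nearly absent from both sorted groups, as described with the sorted cells. Ldha accounted for 97.7% of lactate dehydrogenase TPM in UN and over 99.5% in each library of the other groups.

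Oxidation of pyruvate in the mitochondrion is held back by the PDK kinases, and 2 of the 4 rose in both backgrounds. Pdk1 had 18.9, 23.7 and 25.6 TPM in UN and 94.5, 113 and 151 TPM in UH. Its sorted values were 12.6, 12.96 and 14.96 TPM in SN and 99.4, 94.9 and 79.2 TPM in SH. Pdk1 rose by 2.33 ± 0.17 (SE; limma adjusted p = 9.81e-07) and 2.66 ± 0.17 (adjusted p = 6.31e-07) on the log2 scale. Pdk3 had 35.1, 40.5 and 41.5 TPM in UN and 104, 99.7 and 111 TPM in UH. It had 17.6, 18.5 and 16.97 TPM in SN and 54.6, 60.1 and 48.3 TPM in SH, with log2 fold changes of 1.40 ± 0.10 and 1.56 ± 0.10. At each oxygen level the Pdk3 libraries of sorted cells lay below those of unsorted cells. Pdk4, known as a fasting-induced kinase, stayed low, at 1.89, 0.427 and 0.849 TPM in UN and 3.45, 4.14 and 4.14 TPM in UH. In SN it stood at 2.74, 2.05 and 2.60 TPM and in SH at 4.90, 6.79 and 5.42 TPM. The change was called in unsorted cells at 1.31 ± 0.23 and missed the fold threshold in sorted cells at 0.95 ± 0.23, where it was called without SN replicate 1 (1.01) or SH replicate 1 (1.04), with a pseudocount of 0.1 (1.18) and after rescaling without the members (1.0006). Pdk2 went in no common direction, with 11.9, 25.1 and 25.99 TPM in UN, 10.8, 12.8 and 15.6 TPM in UH, 5.31, 9.08 and 13.00 TPM in SN and 22.2, 17.4 and 12.3 TPM in SH. In neither background was Pdk2 called with hypoxia in the main fit. In SH against SN it was called higher without SN replicate 3 (1.16) or SH replicate 3 (1.10). The PDK mix therefore moved toward Pdk1, which held 27.2% ± 0.763 of it in UN, 49.1% ± 4.601 in UH, 31.6% ± 1.25 in SN and 54.1% ± 1.03 in SH.

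The pyruvate dehydrogenase genes themselves were lower in hypoxia by less than the fold threshold. Pdha1, which encodes the phosphorylated α subunit, measured 145, 150.2 and 149.9 TPM in UN and 85.5, 97.3 and 109 TPM in UH. Its sorted libraries held 169, 151 and 173 TPM in SN and 97.5, 100 and 109.7 TPM in SH. The groups did not overlap, and the log2 differences were -0.61 ± 0.10 (SE; limma adjusted p = 0.000385) and -0.68 ± 0.10 (adjusted p = 0.00024). Those of the β subunit gene Pdhb were -0.64 ± 0.093 (adjusted p = 0.000155) and -0.42 ± 0.093 (adjusted p = 0.0036), from group means of 46.8 and 38.5 TPM in UN and SN. Relative to the all-gene median of -0.19 in UH against UN, these differences were -0.42 for Pdha1 and -0.45 for Pdhb.

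Among the gluconeogenic genes, only Pck2 and Pcx were above the filter. Pck2, the mitochondrial form of PEP carboxykinase, had 37.4, 25.6 and 24.5 TPM in UN, 44.2, 45.00 and 40.6 TPM in UH, 18.2, 17.6 and 18.8 TPM in SN and 20.1, 17.2 and 23.4 TPM in SH. It was higher in UH than UN without overlap, by 0.58 ± 0.16, under the fold threshold. Pcx encodes pyruvate carboxylase, which makes oxaloacetate from pyruvate, and lies at chr19:4510472-4621752 on the plus strand. It had 19.9, 24.5 and 21.01 TPM in UN and 9.80, 11.9 and 11.5 TPM in UH. It had 22.8, 19.99 and 19.6 TPM in SN and 36.3, 39.4 and 26.1 TPM in SH. The UH libraries were all below UN and the SH libraries all above SN, with log2 differences of -0.92 ± 0.15 (limma adjusted p = 0.000465) and 0.66 ± 0.15 (adjusted p = 0.00487), neither past the fold threshold.

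In normoxia the share of members that differed between sorted and unsorted cells was close to that of all genes. In SN against UN no member was called higher and 4 of 33 (12.1%) were called lower, where 10.8% of all tested genes were called, 3.2% higher and 7.57% lower. The members' median log2 fold change was 0.12, that of all genes -0.06. The SN libraries lay wholly above the UN libraries for 10 members and wholly below for 9, beside 20.3% and 28.7% of all tested genes. Ldhb differed most. It lies at chr6:142490249-142507957 and fell from 26.9, 19.9 and 17.1 TPM in UN to 0.623, 0.256 and 0.613 TPM in SN, a log2 fold change of -3.88 ± 0.18 (SE; limma adjusted p = 4.12e-08) on the log2(TPM + 1) scale. Pfkfb3 fell by 2.23 ± 0.36 (adjusted p = 0.000603), Pdk3 by 1.10 ± 0.10 (adjusted p = 1.2e-05) and Pdk2 by 1.12 ± 0.34 (adjusted p = 0.0237). The Pdk2 libraries overlapped between the groups, and that call was lost without UN replicate 2 (-0.96) or 3 (-0.93), without SN replicate 1 (-0.81) or 2 (-1.15), after quantile normalization (-0.94), and in a fit of the UN and SN libraries alone (adjusted p = 0.0895). Pdk3 stood at -0.98 after median-of-ratios scaling, just short of a call. Slc2a1, Hk1, Hk2, Gpi1, Pfkl, Aldoa, Pgam1 and Pkm were higher in SN than UN without overlap, by log2 differences of 0.50 to 0.76 that were under the fold threshold. Without UN replicate 1, Eno2 (1.12), Eno3 (1.05) and Pdk4 (1.09) were called higher, and without SN replicate 1 Gapdh was (1.04). Pdk4 was also called higher with a pseudocount of 0.1 (1.35) and after quantile normalization (1.06). The fibroblast marker list moved with this comparison, as 5 of its 9 tested genes were called lower in SN, among them Col3a1, Col1a2, Col1a1 and Pdgfra. The part of these markers in the member differences was not tested.

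**Figure D5:**
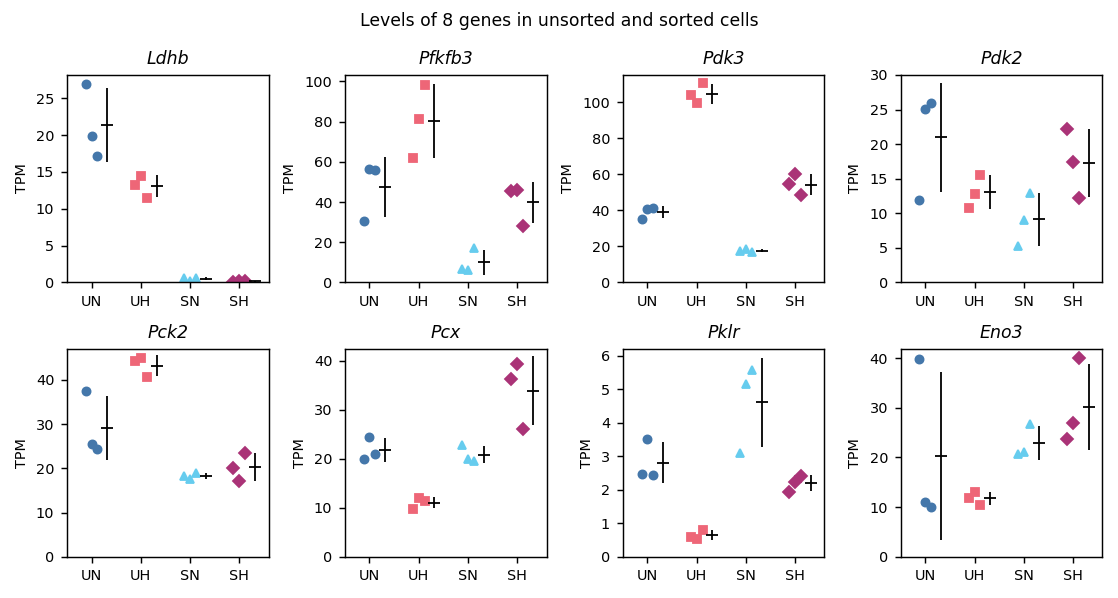
TPM in each library for 8 members, of which all but Pklr were called between sorted and unsorted cells in normoxia or hypoxia, with the group mean ± SD as a black bar. Ldhb is at 11.4 to 26.9 TPM in the unsorted libraries and at most 0.623 TPM in the sorted ones, and Pcx is lowest in UH and highest in SH.

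In hypoxia, SH against UH called 2 members higher, Pcx and Eno3, and 4 lower, Ldhb, Aldoc, Pck2 and Pfkfb3. These were 18.2% of the tested members, beside 13% of all tested genes, 7.65% higher and 5.35% lower. The median was 0.05 for the members and 0.17 for all genes. The SH libraries lay wholly above the UH libraries for 11 members and wholly below for 10, beside 34.5% and 17.2% of all tested genes. Ldhb fell by 3.58 ± 0.18 (SE; limma adjusted p = 7.78e-08) from 13.3, 14.4 and 11.4 TPM in UH to 0.107, 0.223 and 0.182 TPM in SH. Pcx rose by 1.52 ± 0.15 (adjusted p = 1.52e-05) and Eno3 by 1.26 ± 0.40 (adjusted p = 0.025), the latter from 11.8, 13.1 and 10.4 TPM in UH to 23.7, 26.9 and 40.1 TPM in SH. Aldoc fell by 1.83 ± 0.39 (adjusted p = 0.00305), Pck2 by 1.07 ± 0.16 (adjusted p = 0.000233) and Pfkfb3 by 1.00 ± 0.36 (adjusted p = 0.042). The Eno3 call was lost without SH replicate 3 (1.05), SH replicate 2 (1.33), UH replicate 1 (1.27) or UH replicate 3 (1.18). That of Pck2 was lost without SH replicate 2 (-0.96). That of Pfkfb3 was lost without UN replicate 2 or 3 (-1.003 each), UH replicate 2 (-0.98) or 3 (-0.85), or SH replicate 1 (-1.11), 2 (-1.12) or 3 (-0.78). It was also lost with no filter on low values (adjusted p = 0.0725) and after rescaling TPM without the members (-0.99), without mitochondrially encoded genes (-0.98) or without the 20 highest genes (-0.97). Slc2a1 was lower in SH than UH by -0.84 ± 0.16 (adjusted p = 0.0014), with no overlap. After median-of-ratios scaling Slc2a1 (-1.06) and Pdk3 (-1.16) joined the lower calls and Eno3 (1.05) left the higher ones, as Eno3 (1.11) did after quantile normalization, where Pdk3 (-1.01) was again called, while the calls among all genes went from 1447 higher and 1012 lower to 1021 and 1323. Pdk3 was also called lower without SH replicate 2 (-1.01). Pklr, not called in the main fit, was called higher with a pseudocount of 0.1 (1.65) and after rescaling TPM without the 20 highest genes (1.05). It was also called without UH replicate 3 (1.04) or SH replicate 1 (1.03). SN and UN were the controls of the hypoxia comparisons and UH and SH also enter those, so none of these lists is independent of the others. The fibroblast markers moved with this comparison too, with 6 of 9 tested genes called lower in SH, and their part in it was not tested.

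The difference between the hypoxia responses, (SH - SN) - (UH - UN), was called in 4 members, 2 in each direction, where 10.3% of all tested genes were called, 8.08% higher and 2.18% lower. Its median was -0.09 for the members and 0.25 for all genes. The response of Slc2a1 was smaller in sorted cells by 1.60 ± 0.23 (SE; limma adjusted p = 0.000715), since SN started higher and SH ended lower than the unsorted groups. Pcx differed by 1.58 ± 0.22 (adjusted p = 0.000642), being lower with hypoxia in unsorted and higher in sorted cells. These 2 calls held under every alternative tried. Aldoc differed by -1.93 ± 0.56 (adjusted p = 0.0298) and Pdk2 by 1.47 ± 0.48 (adjusted p = 0.0467). The Aldoc call was lost without UN replicate 2 or 3 (-1.79 and -1.75), without any single UH library (-1.95 to -1.89) without any single SN library (-2.01 to -1.84), and with no filter on low values (adjusted p = 0.0547). The Pdk2 call was lost without UN replicate 2 or 3 (1.31 and 1.29), any single UH library (1.35 to 1.60), SN replicate 1 or 2 (1.17 and 1.51), or SH replicate 1 or 2 (1.28 and 1.45), with no filter (adjusted p = 0.0791) and after median-of-ratios or quantile scaling (1.15 each). For the other 29 tested members the difference was not called. Hk1 (-0.75 ± 0.19, adjusted p = 0.0168), Pkm (-0.41 ± 0.13, adjusted p = 0.0362) and Pfkfb2 (0.90 ± 0.27, adjusted p = 0.0372) passed the adjusted p but not the fold threshold, and Hk1 was called after median-of-ratios scaling (-1.09). Pfkfb2 was called without UH replicate 3 (1.06), SN replicate 3 (1.02) or SH replicate 3 (1.06). Pfkfb3, at 1.22 ± 0.51, was called without UN replicate 1 (1.51) or SN replicate 3 (1.65).

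Of 34 other genes of the pathway (side branches, further isozymes, transport and the rest of the pyruvate dehydrogenase system), 28 were tested. In UH against UN 3 were called higher and 3 lower, 21.4% beside 17.2% of all tested genes, with a median of -0.19 in both. In SH against SN 4 were called higher and 2 lower, 21.4% beside 12.5%, with a median of 0.06 beside 0.03. Pgm2, a phosphoglucomutase, went from 42.8 ± 3.22 TPM in UN to 367 ± 8.32 in UH and from 30.8 ± 2.80 in SN to 204 ± 18.7 in SH (SD, n = 3). Gpd1l, which resembles glycerol 3-phosphate dehydrogenase, went from 33.1 ± 5.44 to 4.66 ± 0.646 TPM and from 37.3 ± 5.39 to 7.09 ± 0.841 TPM. Gapdhs, the sperm form of the triose dehydrogenase, was listed at 0 in each UN library and reached 4.30, 5.46 and 2.04 TPM in SH, and it was called in SH against SN alone of the hypoxia comparisons, with a difference of responses of 1.67 (limma adjusted p = 0.00384). The other calls, named after their values were seen, were Slc2a8 (1.99 and 1.86) and Slc37a4 (1.45 and 1.76), higher in both backgrounds, Slc2a2 (-1.03 and -1.51), lower in both but in unsorted cells not without UN replicate 3 (-0.96) or UH replicate 2 (-0.99) nor after median-of-ratios (-0.91) or quantile scaling (-0.90), and Pdhx (-1.73), lower in unsorted cells. Ldhd, the D-lactate dehydrogenase, was called between SH and UH, at 2.01, and in the difference of responses, at 1.10, the latter not without SH replicate 2 (0.97) or after median-of-ratios (0.885) or quantile scaling (0.838). With Slc2a2, Slc2a4, Slc2a8 and Slc2a12 counted in the family, Slc2a1 made up 68.0% of the glucose transporter TPM in UN, 91.6% in UH, 79.7% in SN and 88.9% in SH. No gene of this list was called between SN and UN.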

How the data were processed

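RNA was sequenced as paired-end stranded mRNA libraries. The authors ran nf-core/rnaseq 3.12.0 and deposited TPM from Salmon, summed per gene, scaled to 1000000 in each library and with no scaling between libraries. The labels name mm10 (GRCm38), and the annotation release is not given in the sources used here. TPM hold no depth, so no counting interval could be given. Groups were taken from the sample titles.

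Values were transformed as log2(TPM + 1). Genes were kept if their TPM averaged 0.1 or more over the 12 libraries, and these 18909 were fitted in limma 3.58.1 (R 4.3.3) with a mean for each of 4 groups, all 12 libraries and a trend on mean expression. The contrasts compared hypoxia with normoxia in each background, sorted with unsorted cells at each oxygen level, and the responses with each other. The p-values were adjusted by Benjamini-Hochberg within each, and a gene was called at an adjusted p under 0.05 and an absolute log2 fold change above 1. The fit was tested on simulated data first. An isozyme share is a gene's part of its family's summed TPM and was compared by two-sided exact permutation. Gene coordinates were read from GENCODE M21, which held 98.8% of the identifiers. Promoter windows came from RefSeq. Alternatives covered the pseudocount, filters, scaling, the samples in the fit, moderation, a replicate block and leaving out each library. Per-library values are given for members called with hypoxia or in the difference of responses and for the most abundant form of each family, and members that do not fall under this were described by means, ranges or counts unless a sentence turned on them. Up to 4 genes of each other list are named, and any others are marked. Some genes of the other lists are not reported here. The members and all lists were chosen with earlier results of these data known. Plots were drawn in matplotlib 3.10.9, and shares and permutations were computed with numpy 2.4.6 and pandas 2.3.3 under Python 3.11.15.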

Additional observations from a re-analysis of the deposited data

Results flagged for a closer look

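The response to hypoxia differed between sorted and unsorted cells, by a test of the difference itself in limma, in 4 of 33 tested members, where 10.3% of all tested genes were called in either direction. The difference (sorted minus unsorted, log2) was -1.60 for Slc2a1 and 1.58 for Pcx, both called under each of the 22 alternatives that gave a value, with ranges of -1.94 to -1.42 and 1.26 to 1.75. It was -1.93 for Aldoc, where SH replicate 3 stood at 4.61 TPM beside 16.3 and 17.1 TPM, and 1.47 for Pdk2, where UN replicate 1 stood at 11.9 TPM beside 25.1 and 26.0 TPM. Leaving out the library named kept each of these 2 calls, at -1.37 for Aldoc and 1.82 for Pdk2. They were lost under other alternatives, among them leaving out certain other libraries. The fibroblast markers and the share of mitochondrially encoded transcripts also differed between the groups, and their part in these differences was not tested.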

How the results depend on the processing

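All 19 members called higher in UH against UN and 18 of the 19 in SH against SN kept their call under every alternative, Pkm being the exception. Of 53 called fold changes of members, 45 kept the call under every alternative and 8 lost it under at least 1. Eno3 in UH against UN, not called, was the 1 fold change that changed sign, at 0.14 without UN replicate 1, and its range with 1 library left out was -0.80 to 0.14. Counts of members depended on the processing where few were called. With a pseudocount of 0.1, 1 member was called lower in SH against SN and 1 higher in SN against UN. Quantile normalization gave 1 member higher in SN against UN, and median-of-ratios scaling and quantile normalization each gave 1 higher in SH against UH and 1 higher in the difference of responses. Without a filter on low values the difference of responses had 1 member higher and 1 lower. Leaving out 1 library at a time gave 0 to 3 members higher in SN against UN, 1 to 3 higher in SH against UH, and 1 to 4 higher and 1 to 3 lower in the difference of responses. The cause was not tested. Among all genes, calls in the difference of responses went from 1527 higher and 412 lower to 901 and 782 after median-of-ratios scaling, and those in SN against UN from 606 and 1431 to 840 and 1136 after quantile normalization. Of 30 called fold changes in the other pathway lists, 21 were kept under every alternative.

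Counting further transporters in the family brought Slc2a1 to 68.0%, 91.6%, 79.7% and 88.9% in UN, UH, SN and SH and Slc2a3 to 0.157% in UN, and counting Ldhc put Ldha at 99.98% in SH. Without mitochondrially encoded genes the members' share was 1.16% in UN and 4.85% in UH. Replicate numbers did not pair the libraries, since deviations of same-numbered libraries correlated at only -0.12 to 0.14. With a replicate block, 19 members were called higher and 1 lower in UH against UN and 19 higher in SH against SN, and no count of called members changed, with 1032 higher and 2224 lower among all genes in UH against UN. Depth could not be assessed from TPM, and members below 1 TPM, such as Ldhb in sorted cells, are the least certain.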

Other observations

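The citric acid cycle oxidizes the acetyl-CoA that pyruvate dehydrogenase supplies. Of its 17 genes, 5 (29.4%) were called lower in UH against UN, beside 11.8% of all tested genes. In SH against SN 3 (17.6%) were called lower, beside 5%, and none was called higher in either comparison. On the TPM scale, for each of the 17 genes every hypoxic library lay below every normoxic one in both backgrounds. Of all tested genes, 36.2% did so in UH against UN and 27.1% in SH against SN. Their median log2 fold change was -0.75 in unsorted and -0.63 in sorted cells, beside -0.19 and 0.03 for all genes. Idh3a, a subunit of the NAD-linked isocitrate dehydrogenase, went from 81.1 ± 4.601 TPM in UN to 22.3 ± 2.14 in UH and from 87.6 ± 5.81 in SN to 30.1 ± 3.36 in SH (SD, n = 3). Idh2 fell by 1.51 and 1.01 on the log2 scale, and Fh1, the fumarase gene, by 1.41 in unsorted cells. After median-of-ratios scaling Ogdh (-0.83) and Suclg2 (-0.90) in unsorted and Idh2 (-0.996) in sorted cells were no longer called, nor were they after quantile normalization (-0.92, -0.93 and -0.92), where Ogdh in sorted cells (-0.98) was lost too. The Idh2 call in sorted cells was also lost without SN replicate 3 (-0.90) or SH replicate 1 (-0.97) and after rescaling TPM without the members (-0.95) or the 20 highest genes (-0.99). The summed share of the 17 genes was 0.267% of TPM in UN, 0.149% in UH, 0.278% in SN and 0.172% in SH.

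The pentose phosphate pathway leaves glycolysis at glucose 6-phosphate, and 8 of its 10 listed genes were tested. In each hypoxia comparison none was called higher and 2 were called lower (25%). The share called lower among all tested genes was 11.8% in UH against UN and 5% in SH against SN. Taldo1, a transaldolase gene, was called lower in both backgrounds, from 137 ± 10.1 to 56.6 ± 5.75 TPM and from 172 ± 11.6 to 66.7 ± 14.3 TPM, and the call in unsorted cells was lost after median-of-ratios scaling (-0.91). G6pdx, which encodes the first enzyme of the pathway, was called lower in sorted cells (log2 fold change -1.77, limma adjusted p = 8.6e-07), where it went from 81.6 ± 3.19 to 23.3 ± 2.39 TPM, and it stood at 74.8 ± 5.84 TPM in UN and 49.8 ± 7.04 TPM in UH. The difference between the responses of G6pdx was -1.19 (limma adjusted p = 0.000695). Rpia was called lower in UH against UN at -1.01, and this call was lost after median-of-ratios (-0.68) or quantile scaling (-0.69), after rescaling TPM without the members (-0.96) or the 20 highest genes (-0.997), and without UN replicate 2 (-0.96), UN replicate 3 (-0.94) or UH replicate 3 (-0.93).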
